A study of Mus musculus with 54 samples.

Results

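Amino acid transporters of the plasma membrane and the lysosome were examined as a group of gene families in the hearts and livers of mice with altered mitochondrial translation. The group holds the 64 protein-coding genes whose symbols begin with Slc1a, Slc3a, Slc6a, Slc7a, Slc36a, Slc38a or Slc43a, of 54356 genes counted in each tissue. The rule uses symbol and gene type, and the families themselves were picked with earlier results of these data known. By family there were 7 Slc1, 2 Slc3, 21 Slc6, 16 Slc7, 4 Slc36, 11 Slc38 and 3 Slc43 genes. Slc7a6os has the letters of the Slc7 family but is named for its place on the opposite strand of Slc7a6, which leaves 63 transporter genes.

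All animals were C57BL/6 mice of 20 weeks on a high-fat diet (HFD) with 42% of its energy from fat, which was also the diet of the wild type. Mrps12+/+ mice served as controls and came from the same heterozygous crosses as the mutants. Mrps12ep/ep mice are homozygous for an error-prone form of MRPS12, a protein at the decoding site of the mitochondrial ribosome, and Mrps12ha/ha mice for a hyper-accurate form. The mutations are present in every cell, and RNA came from the total organ, so that a lower level in bulk RNA may reflect fewer cells of a type or less RNA per cell, which cannot be told apart here. There were 3 mice per genotype, and each gave 1 column of normalized counts per tissue.

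Cells take up most amino acids through carriers that couple them to sodium, protons or the exchange of another amino acid. Slc38 carriers (SNATs) move glutamine and small neutral amino acids with sodium, Slc1 carriers move glutamate or small neutral amino acids, and Slc6 carriers move neurotransmitters, taurine, creatine, betaine and glycine. Slc7 genes encode either carriers of cationic amino acids or the catalytic light chains of exchangers, which reach the membrane only with a heavy chain from the Slc3 family. Slc36 carriers are coupled to protons, and Slc43 carriers work by facilitated diffusion. Several members sit on lysosomes, where amino acids are sensed by the kinase complex mTORC1.

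A heart held between 11202866 and 51480271 reads on genes, the lowest being Mrps12ha/ha mouse 2, and a liver between 21238036 and 81518399. All 8 ventricular and all 10 hepatocyte markers were found in the tissue they define. Hearts differed in atrial markers, whose summed normalized count was 98553 or more in Mrps12+/+ mice 2 and 3 and Mrps12ep/ep mice 2 and 3 and 12053 or less in the other 5 hearts. Livers of Mrps12+/+ mice 1 and 2 held summed skeletal muscle markers of 27300.2 and 35419, against 183 or less in the other 7 livers. In livers the third control, Mrps12+/+ mouse 3, stood apart in other markers, with a summed adipocyte marker count of 8839 against 809 and 4133 in the other controls and 229 to 1554 in mutants, and the lowest endothelial sum (3454 against 5876 or more). Fits without the marked libraries leave 1 control in livers, that mouse, and 1 heart each of Mrps12+/+ and Mrps12ep/ep.

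Levels were compared between genes per length, as reads per kilobase of merged exons, scaled to the gene reads of the library (RPKM), computed from whole reads recovered from the deposited values. In the heart 22 members reached 1 RPKM and 8 reached 10 RPKM. Over all genotypes the highest mean was that of Slc43a3, a carrier of purine nucleobases, at 41.2 ± 9.04 RPKM (SD over 9 mice). It was followed by the creatine transporter Slc6a8 at 40.4 ± 4.96 and the glutamine carrier Slc38a3 at 33.2 ± 8.32 RPKM. Each of these differed from its neighbour by less than the larger of the SDs, and in Mrps12+/+ hearts alone the mean of Slc6a8 was above that of Slc43a3 (34.5). Slc38a2 (26.9 RPKM), the taurine transporter Slc6a6 (20.9), Slc38a10 (19.6), the heavy chain Slc3a2 (18.7), Slc36a2 (11.9), the glutamine carrier Slc1a5 (8.48) and the cationic amino acid carrier Slc7a1 (5.52) completed the 10 highest. Together these 10 genes made up 85.1% of the summed level of the families.

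In the liver Slc38a3 and Slc38a4 stood far above the other members. Slc38a3, which exchanges glutamine across the hepatocyte membrane, was at 285 ± 55.5 RPKM and Slc38a4, a carrier of neutral and cationic amino acids, at 259 ± 52.6 RPKM, and both gave 66.6% of the summed level. Their order depended on the genotype, Slc38a4 being at 252 and Slc38a3 at 242 RPKM in Mrps12+/+ livers. The next were Slc6a13, a transporter of GABA and taurine, at 59.6 ± 9.75 RPKM and Slc7a2, the cationic amino acid carrier of hepatocytes, at 57.4 ± 18.6 RPKM. Slc3a1 (24.2), Slc38a2 (19.6), the betaine transporter Slc6a12 (18.3), Slc38a10 (14.9), Slc3a2 (11.6) and the glutamate transporter Slc1a2 (11.2) followed. Neighbours from Slc3a1 to Slc6a12 in this order, and Slc3a2 and Slc1a2, differed by less than the larger of their SDs. Slc38a2, Slc38a3, Slc38a10 and Slc3a2 were the 4 genes among the 10 highest of both tissues.

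**Figure D1:**
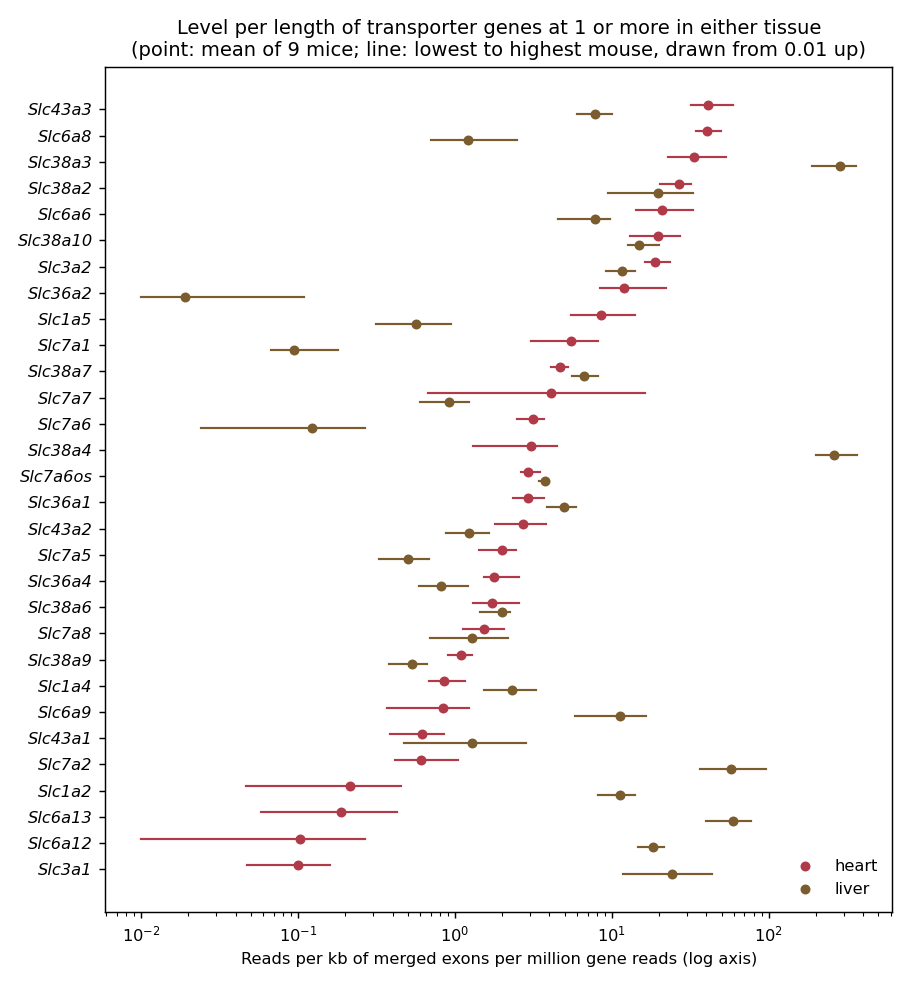
Level per length (RPKM, log axis) of the members at 1 RPKM or more in either tissue, with the mean of 9 mice as a point and the range of mice as a line, drawn from 0.01 up. Slc38a3 and Slc38a4 lie at 285 and 259 in the liver, and Slc3a1, Slc6a12 and Slc6a13 are below 0.2 in the heart.

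The tables of the 2 tissues were normalized separately, so their levels are set side by side without a test. The heavy chains divided by tissue. Slc3a2, the CD98 heavy chain, was at 18.7 RPKM in the heart and 11.6 in the liver, whereas Slc3a1, the heavy chain of the cystine and dibasic amino acid exchanger, was at 24.2 RPKM in the liver and 0.1 in the heart. Its usual partner Slc7a9 had only 5 reads over the 9 livers and 2 over the 9 hearts, and Slc7a13, another gene whose product pairs with that heavy chain, had 5 and 4 reads.

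Among partners of Slc3a2, the heart held Slc7a7 (4.06 RPKM), Slc7a6 (3.13), Slc7a5 (2.00) and Slc7a8 (1.53), light chains that exchange large neutral or cationic amino acids. Slc7a7 ranged from 0.673 to 16.3 RPKM, and in the 5 hearts of low atrial markers its mean was 0.881, the lowest of the 4. In the liver the same genes were at 0.911, 0.123, 0.499 and 1.29 RPKM. The cystine-glutamate exchanger Slc7a11 had 70 reads over all hearts and 32 over all livers, and Slc7a10 had 70 and 31. Both were below the level at which genes were tested.

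Of the 64 genes, 40 of the heart and 37 of the liver had a mean normalized count of at least 10 over the 9 mice and entered the fits, 34 of them in both. Slc1a1, Slc1a7, Slc36a2, Slc38a5, Slc38a11 and Slc6a17 passed in the heart alone and Slc3a1, Slc6a16 and Slc6a21 in the liver alone, and 21 passed in neither. The untested included carriers known from neurons, kidney or intestine. No read of Slc6a18 or Slc7a12 was found in either tissue, and 11 members in the heart and 14 in the liver had at most 3 reads in every mouse, the dopamine transporter Slc6a3 among them in both.

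The first question was whether transporter transcripts differed between the genotypes. With limma over all tested genes and Benjamini-Hochberg adjustment, no member had an adjusted p under 0.05 in any of the 6 comparisons. The shares of all genes called were 0.0311% in hearts of Mrps12ha/ha against Mrps12+/+ mice, 0.0% for Mrps12ep/ep against Mrps12+/+ and 0.0249% for Mrps12ha/ha against Mrps12ep/ep, and 0.00653% in each of the 3 comparisons of livers. A fit with limma-voom on the recovered reads also called 0 members in each comparison.

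At an unadjusted p under 0.05 the counts of members followed those of all genes in most comparisons. In hearts 8 of 40 members passed for Mrps12ha/ha against Mrps12+/+ (19.7% of all genes), 0 for Mrps12ep/ep against Mrps12+/+ (1.69%) and 6 for Mrps12ha/ha against Mrps12ep/ep (17.9%). In livers 5 of 37 passed for Mrps12ha/ha against Mrps12+/+ (14.1%), 5 for Mrps12ep/ep against Mrps12+/+ (9.74%) and 9 for Mrps12ha/ha against Mrps12ep/ep (8.62%). In the last of these the members' share was 24.3%, and whether it differs from that of all genes was not tested.

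The 3 mice of one genotype lay wholly on one side of the 3 of the other for 7 members in the first heart comparison (21.2% of all genes), 1 in the second (8.03%) and 6 in the third (16.6%). The counts in livers were 8 (19.9%), 5 (12.8%) and 9 (17.8%) in the same order. For 3 against 3 mice the two-sided exact permutation test cannot go below 0.1, which was its value for each of these. Median log2 fold changes of the members were between -0.063 and 0.058 in the 6 comparisons, and those of all genes between -0.024 and -0.002.

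**Figure D2:**
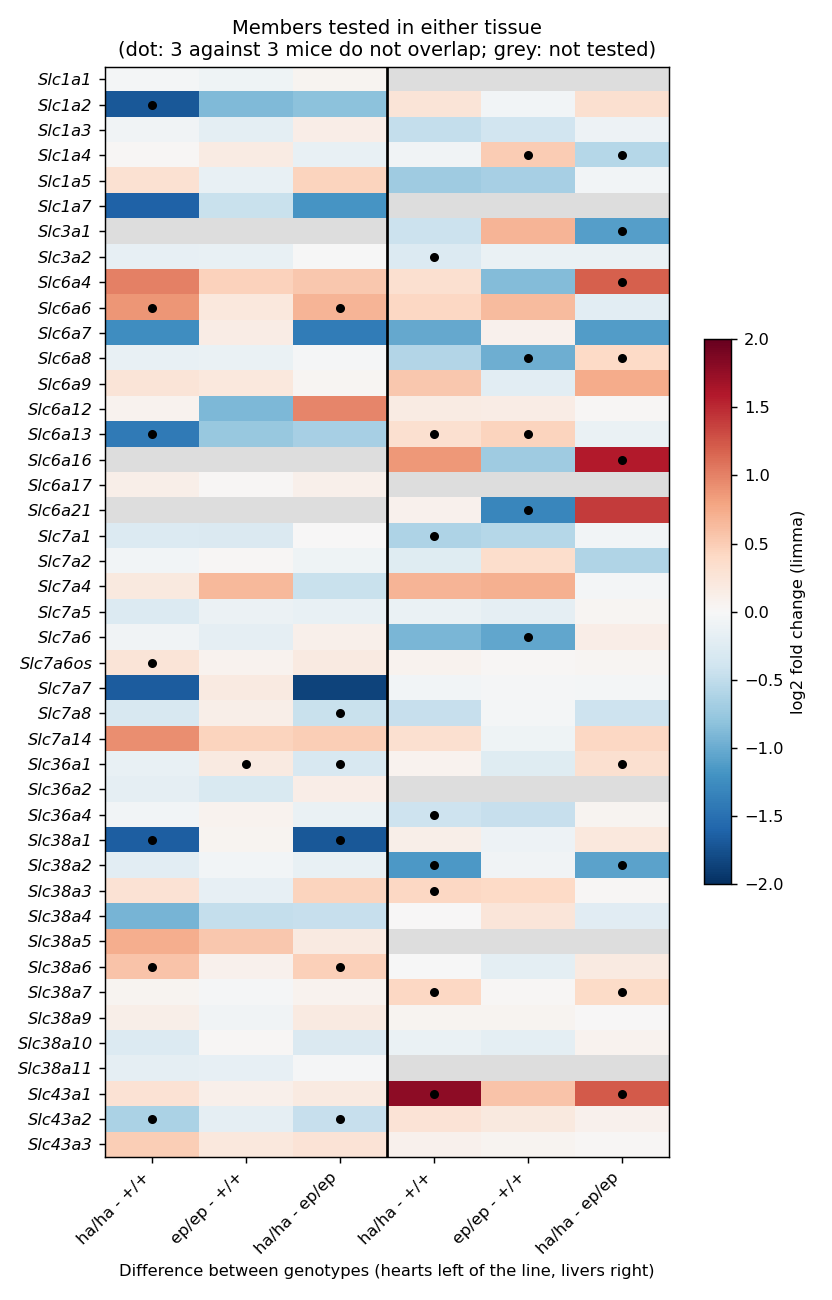
Log2 fold change from limma (colour, first genotype minus second) of every member tested in either tissue, for the 3 comparisons in hearts and in livers. Black dots mark members whose 3 mice of each genotype do not overlap, and grey cells were not tested. Slc38a1, Slc7a7, Slc1a2 and Slc1a7 have the lowest values in Mrps12ha/ha against Mrps12+/+ hearts, and Slc43a1 the highest in livers.

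In the liver the clearest separation was that of Slc38a2, the sodium-coupled neutral amino acid carrier SNAT2, whose transcript is known to increase when amino acids are scarce. Its normalized counts were 13024, 8232 and 11984 in Mrps12+/+ mice, 14708, 8738 and 8496 in Mrps12ep/ep mice and 5191, 5170.2 and 4374 in Mrps12ha/ha mice. Every Mrps12ha/ha liver was below every other liver. The mean was 2.26-fold lower than in Mrps12+/+ mice, with a log2 fold change of -1.15 ± 0.23 (SE) and an adjusted p of 0.116 from limma (unadjusted 0.000702). Against Mrps12ep/ep mice it was 2.17-fold lower (-1.07 ± 0.23, adjusted p = 0.417). Mrps12ep/ep and Mrps12+/+ livers overlapped (log2 fold change -0.08). Over the alternatives the adjusted p against Mrps12+/+ ranged from 0.043 to 0.329. It passed the threshold without Mrps12+/+ replicate 2 (0.049) and without both Mrps12+/+ livers of high muscle markers (0.043), the latter leaving 1 control. In these fits 0.588% and 6.93% of all genes passed.

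Slc43a1, the facilitative carrier LAT3 of leucine and other large neutral amino acids, had the opposite order. Its counts were 201.5, 205 and 150.0 in Mrps12+/+, 327, 143 and 433 in Mrps12ep/ep and 466.5, 906 and 609 in Mrps12ha/ha livers. All Mrps12ha/ha livers were above all others, while Mrps12ep/ep livers spanned the gap. The Mrps12ha/ha mean was 3.56-fold that of Mrps12+/+ mice (log2 fold change 1.79 ± 0.39, adjusted p = 0.127) and 2.20-fold that of Mrps12ep/ep mice (1.22 ± 0.39, adjusted p = 0.480). Of its alternatives against Mrps12+/+ the adjusted p ranged from 0.0862, with the livers of low muscle markers, to 0.365. In the heart the gene was at 73.2 to 126 in Mrps12+/+ and 90.6 to 162 in Mrps12ha/ha mice, which overlap.

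A pair of carriers known from lysosomes, Slc38a7 and Slc36a1, had higher values in Mrps12ha/ha than in Mrps12ep/ep livers, without overlap. Slc38a7, which exports glutamine from lysosomes, was at 1205.5, 1272 and 1342 in Mrps12+/+, 1362.5, 1224 and 1312 in Mrps12ep/ep and 1716, 1769.8 and 1586 in Mrps12ha/ha livers. The differences were small, and the spread within genotypes was narrow. The log2 fold change was 0.41 ± 0.09 against Mrps12+/+ mice (adjusted p = 0.131) and 0.38 ± 0.09 against Mrps12ep/ep mice (adjusted p = 0.417). Slc36a1, a proton-coupled carrier of lysosomes, was at 1331, 1408 and 1774 in Mrps12+/+, 1392, 1160.0 and 1238 in Mrps12ep/ep and 1459, 1671.5 and 1582.5 in Mrps12ha/ha livers. It separated Mrps12ha/ha from Mrps12ep/ep mice (0.32 ± 0.13, adjusted p = 0.551) but not from Mrps12+/+ mice. Slc38a9 and Slc36a4, also known from lysosomes, did not share this, and these genes were grouped after their values were seen. The arginine-gated carrier Slc38a9 had log2 fold changes of 0.004 to 0.058 in the 3 liver comparisons. Slc36a4 was at 306, 272 and 421 in Mrps12+/+ and 271, 220 and 251 in Mrps12ha/ha livers, lower without overlap (-0.41 ± 0.21, adjusted p = 0.416). Its nearest mice were at 271.7 and 271.3, a gap smaller than the worth of 1 read (2.38) in the latter.

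The heavy chain Slc3a1 was at 4712, 1336 and 2185 in Mrps12+/+, 4418, 2715 and 4636 in Mrps12ep/ep and 1675.5, 1992 and 1707 in Mrps12ha/ha livers. Mrps12ep/ep livers were all above Mrps12ha/ha livers (log2 fold change of Mrps12ha/ha against Mrps12ep/ep -1.10 ± 0.39, adjusted p = 0.510), and Mrps12+/+ livers spread over both. Beside it, the summed normalized count of 8 periportal hepatocyte markers was 308065 to 536088 in Mrps12+/+, 548252 to 659992 in Mrps12ep/ep and 352516 to 420695 in Mrps12ha/ha livers. Its part in this difference was not tested. Slc7a2 had a similar order of means, 33620 in Mrps12ep/ep and 21730 in Mrps12ha/ha livers, but the groups overlapped (log2 fold change -0.60 ± 0.25, adjusted p = 0.568).

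Slc3a2 was at 2134, 2191 and 2647 in Mrps12+/+ and 2063.5, 1798.5 and 1887 in Mrps12ha/ha livers, without overlap but with a log2 fold change of only -0.27 ± 0.13 (adjusted p = 0.386), which was -0.47 without the livers of high muscle markers (adjusted p = 0.158). Slc38a3 was at 75239.5, 62969.9 and 53132 in Mrps12+/+ livers and 79384, 93678 and 81130.3 in Mrps12ha/ha livers, again without overlap (0.42 ± 0.20, adjusted p = 0.386, and 0.67 with adjusted p = 0.176 without the same livers). Slc38a4 showed no such separation, with a log2 fold change of 0.01 ± 0.20 in the same comparison.

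Set apart without overlap between Mrps12ep/ep and Mrps12+/+ livers were Slc6a8, Slc6a13, Slc6a21, Slc1a4 and Slc7a6. The separations of Slc6a21 and Slc7a6 were at low counts. Slc6a21 was at 14.0, 7.3 and 9.8 in Mrps12+/+ and 3.1, 5.8 and 2.2 in Mrps12ep/ep livers (adjusted p = 0.619), the latter being 1 to 8 reads. It reached the mean for testing only through Mrps12ha/ha mouse 1, at 42.8. Slc7a6 was at 58.1, 29.1 and 32.6 in Mrps12+/+ and 25.1, 17.3 and 13.3 in Mrps12ep/ep livers (adjusted p = 0.631). Slc6a8 was at 285, 424 and 696 in Mrps12+/+, 230, 244 and 193 in Mrps12ep/ep and 264, 302 and 310 in Mrps12ha/ha livers. Mrps12ep/ep livers were the lowest of all, 2.11-fold below Mrps12+/+ in the mean (log2 fold change -0.98 ± 0.28, adjusted p = 0.407). The wild-type values were widely spread and set most of the error. With the 2 livers of high muscle markers left out the difference was -1.65 against the 1 remaining control (adjusted p = 0.00609), a value that was 0.744 in the least favourable alternative. Of all genes 7.52% passed in that fit. Slc6a8 in controls had the order of the adipocyte sum (809, 4133 and 8839), whose part was not tested.

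Slc6a13 was at 8239.5, 7984 and 6187 in Mrps12+/+, 9267, 11891 and 9433 in Mrps12ep/ep and 9363, 9501.5 and 8776 in Mrps12ha/ha livers. Both mutants lay above the controls without overlap, by 0.45 ± 0.14 on the log2 scale in Mrps12ep/ep (adjusted p = 0.423) and 0.31 ± 0.14 in Mrps12ha/ha mice (adjusted p = 0.344). Both were compared with the same 3 controls. Slc6a6 was at 3676, 2349 and 2058 in Mrps12+/+ and 4188, 3595 and 4357 in Mrps12ep/ep livers, and here 1 control lay within the mutant range (0.63 ± 0.21, adjusted p = 0.454). Without the livers of high muscle markers the adjusted p was 0.0361 for Slc6a13 (range over the alternatives 0.0361 to 0.734) and 0.026 for Slc6a6 (0.026 to 0.775). The control left is mouse 3, which has the lowest value of both genes and the high adipocyte sum.

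Slc1a4, the neutral amino acid exchanger ASCT1, was at 493, 300.0 and 478 in Mrps12+/+, 651, 598 and 515 in Mrps12ep/ep and 362, 438 and 389 in Mrps12ha/ha livers. Mrps12ep/ep livers were the highest of the 9. The log2 fold change was 0.50 ± 0.20 against Mrps12+/+ mice (adjusted p = 0.481), and that of Mrps12ha/ha against Mrps12ep/ep mice was -0.57 ± 0.20 (adjusted p = 0.509). Its relative Slc1a5, the glutamine exchanger ASCT2, had lower means in both mutants than in controls, 99.2 ± 28.2 in Mrps12ha/ha and 103 ± 28.3 in Mrps12ep/ep against 161 ± 30.7 in Mrps12+/+ livers, with overlap. Slc6a16, an orphan member of its family, was at 121, 136 and 93.6 in Mrps12ha/ha and 35.3, 75.9 and 20.0 in Mrps12ep/ep livers (1.59 ± 0.62, adjusted p = 0.543).

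**Figure D3:**
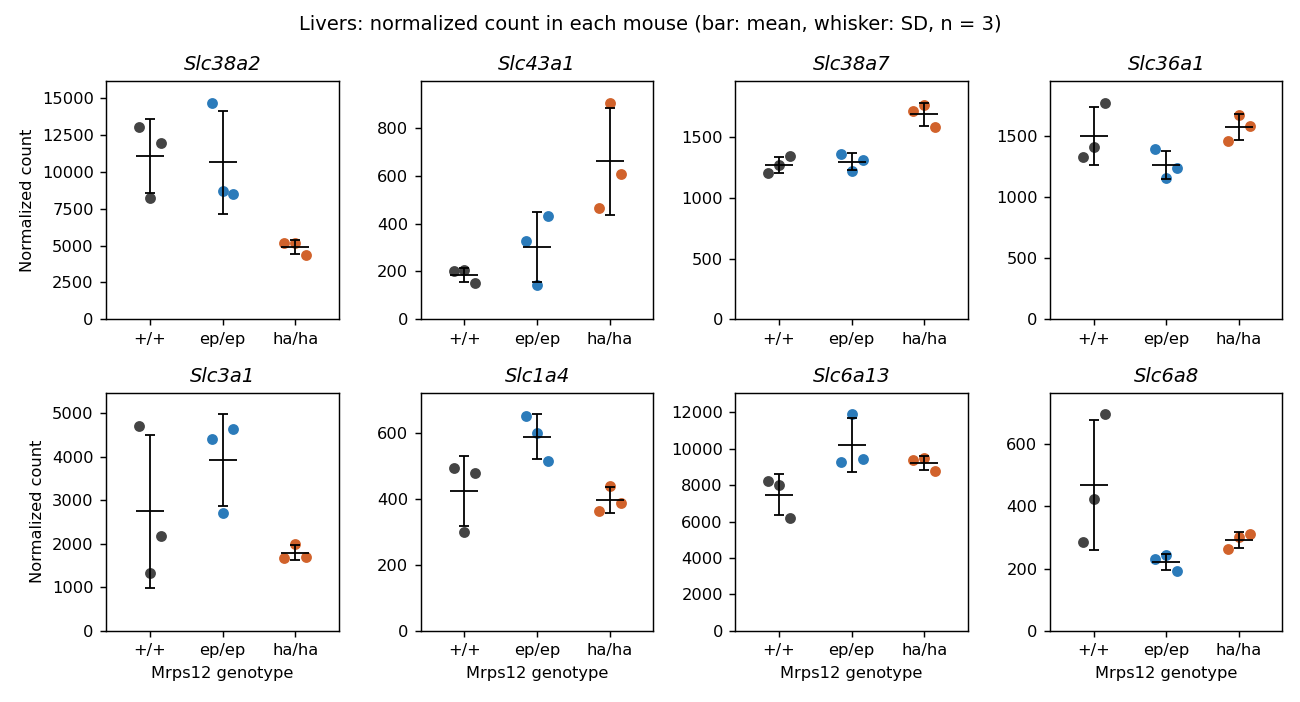
Normalized counts of 8 members in each liver by Mrps12 genotype, with mean and SD of 3 mice. The 3 Mrps12ha/ha livers are the lowest for Slc38a2 and the highest for Slc43a1 and Slc38a7, and the 3 Mrps12ep/ep livers are the highest for Slc1a4 and the lowest for Slc6a8.

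In the heart Slc6a6, which maintains the high taurine content of cardiomyocytes, had the lowest p of all members. Its normalized counts were 4920.5, 4143.5 and 3919.9 in Mrps12+/+, 4818, 4815 and 5294.5 in Mrps12ep/ep and 9113.5, 7909.6 and 6971 in Mrps12ha/ha hearts. The Mrps12ha/ha hearts were above the other 6. Beside this, the sum of 8 ventricular cardiomyocyte markers was 2919170 to 3585980 in Mrps12ha/ha and 2158600 to 2859110 in the other hearts, and that of 11 skeletal muscle markers 3715 to 3856 against 7825 to 38668. Their part was not tested. The mean of Slc6a6 in Mrps12ha/ha hearts was 1.85-fold that of Mrps12+/+ mice (log2 fold change 0.88 ± 0.13, adjusted p = 0.0935) and 1.61-fold that of Mrps12ep/ep mice (0.68 ± 0.13, adjusted p = 0.190). Mrps12ha/ha mouse 2 is the heart with the fewest reads. Without Mrps12ha/ha replicate 2 the adjusted p against Mrps12+/+ was 0.00507, and with array weights, which weight each library by its fit, it was 0.00306. The highest value of any alternative was 0.891. In these fits 27% and 34.7% of all genes were called, and 23.2% and 39.3% against Mrps12ep/ep mice.

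Slc38a6, a member of the SNAT family, was also higher in Mrps12ha/ha hearts. It was at 366, 383 and 356 in Mrps12+/+, 339, 421 and 416 in Mrps12ep/ep and 655, 432 and 574 in Mrps12ha/ha hearts, with a log2 fold change of 0.57 ± 0.17 against controls (adjusted p = 0.208) and 0.48 ± 0.17 against Mrps12ep/ep mice (adjusted p = 0.249). Mrps12ha/ha mouse 2 was the lowest of its genotype. Slc43a3 had the same feature, at 7335, 5330.5 and 8692 in Mrps12ha/ha against 4777.5, 4547 and 5673 in Mrps12+/+ hearts, where mouse 2 fell within the control range (0.49 ± 0.18, adjusted p = 0.220). Beside these, the sum of 8 endothelial markers was 30747 to 37874 in Mrps12+/+ hearts and 59344, 36362 and 50111 in the 3 Mrps12ha/ha hearts, and that of 8 erythroid markers 92066 to 236137 in Mrps12+/+ and 199640 to 1415520 in Mrps12ha/ha hearts. Their part in the result was not tested.

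Slc43a2, the large neutral amino acid carrier LAT4, was at 1264, 1022 and 857 in Mrps12+/+, 1187, 764 and 850.0 in Mrps12ep/ep and 593, 713 and 695 in Mrps12ha/ha hearts. The mutant hearts were below all others, 1.57-fold below controls in the mean (log2 fold change -0.64 ± 0.20, adjusted p = 0.209, and -0.93 with adjusted p = 0.891 in the hearts of low atrial markers) and 1.40-fold below Mrps12ep/ep hearts (-0.46 ± 0.20, adjusted p = 0.268). Slc36a1 was at 554, 516.5 and 504 in Mrps12+/+, 576.5, 607 and 597 in Mrps12ep/ep and 471, 519.5 and 434 in Mrps12ha/ha hearts. It was the single member to separate Mrps12ep/ep from Mrps12+/+ hearts, by 0.18 ± 0.12 on the log2 scale with an adjusted p of 1.0, and the values in Mrps12ha/ha were below those in Mrps12ep/ep hearts (-0.325 ± 0.12, adjusted p = 0.249). Slc7a8, the light chain LAT2, was at 249, 302 and 281 in Mrps12ep/ep and 186, 205 and 220 in Mrps12ha/ha hearts (-0.44 ± 0.18, adjusted p = 0.268).

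**Figure D4:**
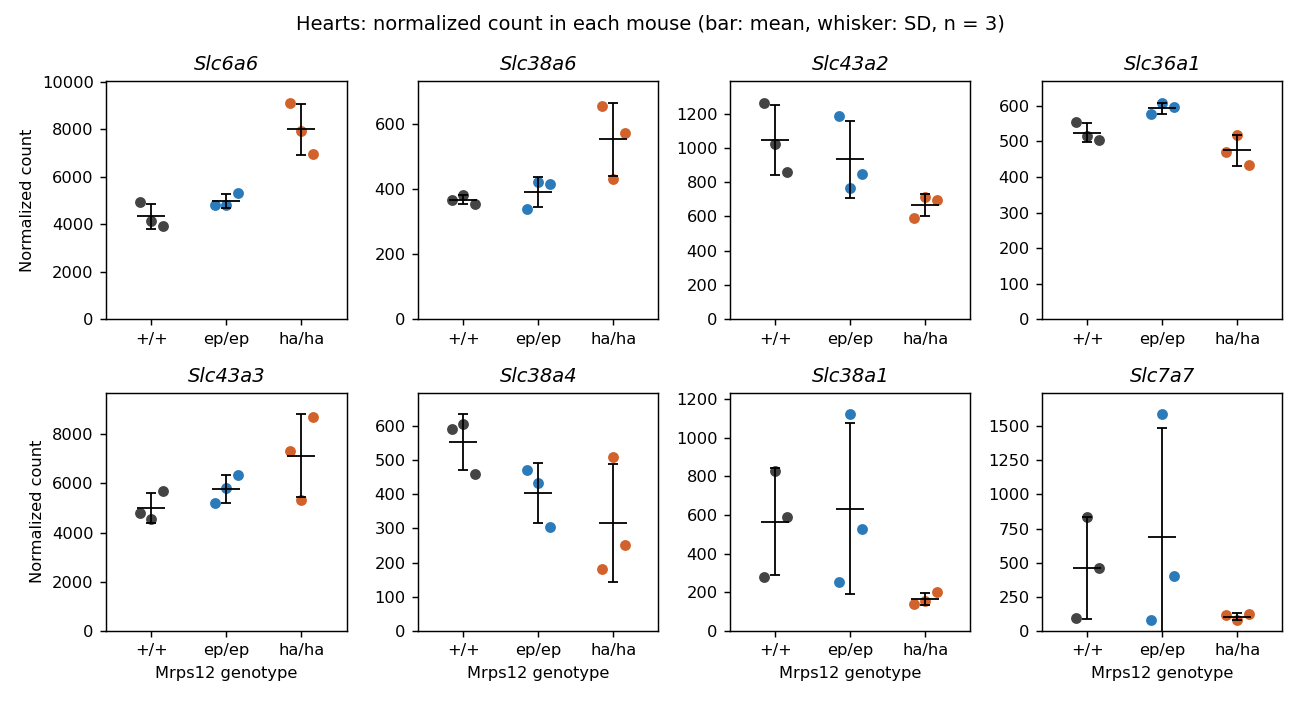
Normalized counts of 8 members in each heart by Mrps12 genotype, with mean and SD of 3 mice (axes start at 0). The Mrps12ha/ha hearts are the highest for Slc6a6 and Slc38a6 and the lowest for Slc43a2, Slc36a1 overlaps between Mrps12ha/ha and Mrps12+/+ mice, and for Slc38a1 and Slc7a7 the spread within Mrps12+/+ and Mrps12ep/ep mice exceeds the values in Mrps12ha/ha mice.

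Several large differences in the heart were of members whose levels moved with atrial markers. Slc38a1, the glutamine carrier SNAT1, was at 276, 827 and 592 in Mrps12+/+, 253, 1122 and 526 in Mrps12ep/ep and 140, 154 and 199 in Mrps12ha/ha hearts. All Mrps12ha/ha hearts were below all others, with a mean 3.44-fold below controls (log2 fold change -1.65 ± 0.53, adjusted p = 0.211) and 3.85-fold below Mrps12ep/ep mice (-1.70 ± 0.53, adjusted p = 0.238). The summed count of 7 atrial markers was 8949, 173234 and 127110 in Mrps12+/+, 2447, 403497 and 98553 in Mrps12ep/ep and 6163, 5699 and 12053 in Mrps12ha/ha hearts. Among the 5 hearts of low atrial markers Slc38a1 was at 276 in the Mrps12+/+, 253 in the Mrps12ep/ep and 140 to 199 in the 3 Mrps12ha/ha hearts. A fit to these 5 gave a log2 fold change of -0.76 against the Mrps12+/+ heart and -0.63 against the Mrps12ep/ep heart (adjusted p = 0.891 and 0.996). The adjusted p against Mrps12+/+ ranged from 0.0142, with array weights, to 0.891.

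Slc7a7, the light chain that exports cationic amino acids, was at 91.3, 832 and 457 in Mrps12+/+, 80.2, 1587 and 400.5 in Mrps12ep/ep and 116, 75.5 and 122 in Mrps12ha/ha hearts. The 5 hearts of low atrial markers lay between 75.5 and 122, and the groups overlapped (log2 fold change -1.67 ± 1.04 against controls, adjusted p = 0.360). Slc1a7, a glutamate transporter named here after its values were seen, had the same order of mice within Mrps12+/+ and within Mrps12ep/ep hearts. It was at 13.8, 65.8 and 38.4 in Mrps12+/+, 5.0, 117 and 20.9 in Mrps12ep/ep and 5.5, 18.1 and 9.7 in Mrps12ha/ha hearts. Within Mrps12ha/ha hearts mouse 2 was the highest for Slc1a7 and the lowest for Slc7a7. For Slc6a6 the fit to the 5 hearts of low atrial markers gave a log2 fold change of 0.69 against the single Mrps12+/+ heart. Against the single Mrps12ep/ep heart it was 0.72. The part of atrial content in the values of Slc38a1, Slc7a7, Slc1a7 and Slc6a6 was not tested.

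**Figure D5:**
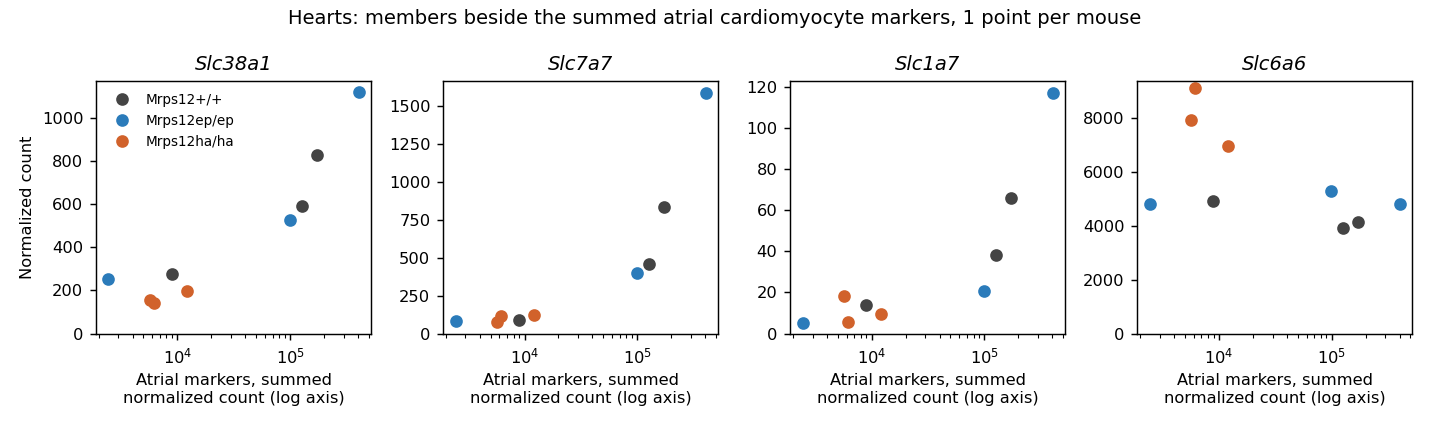
Normalized counts of 4 members in each heart against the summed normalized count of 7 atrial cardiomyocyte markers (log axis), 1 point per mouse. Slc38a1, Slc7a7 and Slc1a7 are highest in the 4 hearts with atrial sums of 98553 or more, and Slc6a6 is highest in the 3 Mrps12ha/ha hearts.

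A few members of higher level in the liver had lower means in Mrps12ha/ha than in Mrps12+/+ hearts, Slc1a2 and Slc6a13 among them at low counts. Others of higher level in the liver had higher means in Mrps12ha/ha hearts, so the direction was not shared. Among these were Slc38a3 (6805 against 5380), Slc6a9 (146.5 against 130.1) and Slc43a1 (127.1 against 103.8), all with overlap. Slc1a2 was at 118, 101 and 174 in Mrps12+/+, 199, 76.0 and 20.9 in Mrps12ep/ep and 20.2, 39.3 and 71.2 in Mrps12ha/ha hearts (log2 fold change of Mrps12ha/ha against Mrps12+/+ -1.70 ± 0.73, adjusted p = 0.243). Slc6a13 was at 24.1, 15.6 and 40.2 in Mrps12+/+ and 5.5, 15.1 and 7.6 in Mrps12ha/ha hearts (-1.42 ± 0.63, adjusted p = 0.252), the latter being 3 to 11 reads. Slc38a4 was at 592.5, 607 and 460.4 in Mrps12+/+ and 182, 510.4 and 252 in Mrps12ha/ha hearts, which overlap (-0.94 ± 0.34, adjusted p = 0.219). Hepatocyte markers, summed over 10 genes, were found in every heart, at 7359 to 19018 in Mrps12+/+, 2377 to 15433 in Mrps12ep/ep and 4274 to 20247 in Mrps12ha/ha hearts, and their part in these values was not tested.

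Among the other abundant members of the heart the genotypes overlapped. Slc38a3, Slc38a2, Slc6a8, Slc38a10, Slc3a2, Slc1a5, Slc7a1 and Slc36a2 had overlapping groups in all 3 comparisons, although array weights called Slc38a2, Slc38a3 and Slc38a10 in Mrps12ha/ha against either genotype and Slc1a5 against Mrps12ep/ep, and the fit without Mrps12ha/ha replicate 2 called Slc38a2 and Slc7a1 against Mrps12+/+. Slc36a2, a proton-coupled carrier also known from brown adipocytes, was at 2346 in Mrps12+/+ mouse 3 and between 907 and 1486 in the other hearts. The sum of 8 adipocyte markers was 18645 in that heart and 1151 to 2982 in the others. In the liver the groups also overlapped for Slc7a2, Slc6a12, Slc38a4, Slc38a10 and Slc1a2.

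Genes that respond to or sense amino acids were examined beside the transporters. Of 28 genes of the amino acid response through GCN2 and ATF4, 27 entered the fit of hearts and 28 that of livers, and none had an adjusted p under 0.05. At an unadjusted p under 0.05 in Mrps12ha/ha against Mrps12+/+ mice, 9.64% of all heart genes were higher and 10.1% lower, and 7.07% and 7.05% of liver genes. In hearts of this comparison 3 of the list were higher and 3 lower, among them Atf3 (log2 fold change -1.53 ± 0.23, adjusted p = 0.0935) and Ddit3 (0.80 ± 0.15, adjusted p = 0.144), both transcription factors of the stress response. In livers 2 were higher and 4 lower, the lower including Ddit4, an inhibitor of mTORC1 (-2.42 ± 0.35, adjusted p = 0.0722), and Atf4 itself (-0.49 ± 0.14, adjusted p = 0.195). The median log2 fold change of the list was -0.007 in hearts and -0.279 in livers, against -0.024 and -0.017 over all genes.

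Of 36 genes that sense amino acids for mTORC1, 36 entered the fit of hearts and 35 that of livers, again with 0 calls by adjusted p. In the same comparisons 3 were higher and 5 lower in hearts and 3 higher and 2 lower in livers at an unadjusted p under 0.05. The kinase gene Mtor was lower in Mrps12ha/ha hearts by 0.78 ± 0.23 on the log2 scale (adjusted p = 0.206). Of 10 tested amino acid and peptide carriers of other families, 8 had a log2 fold change below 0 in hearts and 6 in livers (47.7% of all heart and 47.5% of all liver genes were above 0), and 2 and 0 reached an unadjusted p under 0.05. No gene of the 3 lists passed the adjusted threshold in the comparisons of Mrps12ep/ep with Mrps12+/+ mice or between the mutants.

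Promoter windows of 300 bases, 250 before and 50 after a start in RefSeq (GRCm38.p6), were at hand for 46 of the 64 members. A pair of motifs is shown because each is known from genes of amino acid supply, the core of the amino acid response element TGATGCAA, bound by ATF4 with C/EBP factors, and the E-box TCACGTG, bound by TFEB and TFE3 on genes of lysosomes. Each was searched on both strands. TGATGCAA was in a window of 3 of 46 members (6.52%) and of 1.03% of all 27025 genes. These members were Slc1a4, Slc7a7 and Slc7a11, printed here with the match in capitals, 5′ to 3′ on the strand of the gene.
Slc1a4 (chr11:20332699-20332728, minus strand): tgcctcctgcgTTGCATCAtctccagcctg
Slc7a7 (chr14:54417927-54417956, minus strand): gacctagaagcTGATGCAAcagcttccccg
Slc7a11 (chr3:50443661-50443690, minus strand): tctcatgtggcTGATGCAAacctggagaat
The match began 4 bases before the start of Slc1a4, 1 before the nearer of 2 starts of Slc7a7 (243 before the other) and 66 before that of Slc7a11, which had a second match on the other strand.

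TCACGTG was in a window of 4 of 46 members (8.70%) and of 4.29% of all genes. It was found at Slc36a1, Slc38a7, Slc7a14 and Slc1a6, the last of which was not tested. In Mrps12ha/ha against Mrps12ep/ep livers, log2 fold changes were 0.32 for Slc36a1, 0.38 for Slc38a7 and 0.41 for Slc7a14. In hearts they were -0.325, 0.08 and 0.49 in the same order. Against Mrps12+/+ livers they were 0.07, 0.41 and 0.315 in Mrps12ha/ha and -0.24, 0.03 and -0.09 in Mrps12ep/ep mice. The groups of Slc7a14 overlapped in both tissues. A link between the motif and these values was not tested.
Slc36a1 (chr11:55204325-55204353, plus strand): gggagccagcaTCACGTGacagggcccgg
Slc38a7 (chr8:95853509-95853537, minus strand): gtgattcaggcTCACGTGttacttgagtc
The match began 4 bases before the start of Slc36a1 and 35 before that of Slc38a7. A match describes the letters of these windows and is not a measured site of binding.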

How the data were processed

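RNA of total hearts and livers from 9 mice was sequenced in 54 libraries, 3 technical libraries per mouse and tissue. Per the labels and methods, the authors trimmed reads with Trim Galore 0.4.1 and cutadapt 1.18, checked them with FastQC 0.11.8, quantified them strand-aware with Salmon 1.1.0 on GENCODE vM21 (GRCm38.p6), summarised them by gene and normalized counts with DESeq2 in each tissue, leaving out mitochondrial transcripts at that step. The deposited normalized counts (1 column per mouse and tissue, pooled over technical libraries, every column mapped by its name) were used as given. Deposited tables of the authors' own comparisons (fold changes and p-values) were not used.

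In each column 100.0% of values up to 20 reads were whole multiples of 1 step within 0.1 read, and division by it gave whole reads for depth, for RPKM computed over merged exons and for limma-voom. After addition of 1 and conversion to log2, normalized counts were fitted with limma 3.58.1 in R 4.3.3 (lmFit, eBayes with trend, 3 genotypes in one fit), for genes with a mean of at least 10. There were 16057 such genes in hearts and 15314 in livers. P-values are two-sided, adjusted by the Benjamini-Hochberg method over these genes, with a threshold of 0.05. Python 3.11.15 with pandas 2.3.3 and scipy 1.17.1 served for all other steps, including exact permutation tests. The fit was also run on simulated counts, drawn independently for each mouse with no differences in tissue content. That run cannot show how such differences affect the calls.

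Members and lists were chosen with earlier results of these data known. Named are Slc38a1, Slc43a1, the 10 members with the highest level per length in each tissue, up to 12 members per comparison by log2 fold change whose groups do not overlap at an unadjusted p under 0.05, any member called or at most 3 reads in one genotype only, of which there were none, the heavy chains and their partners. Others were named after their values were seen. Replicates are mice. Same-numbered mice had correlated deviations from their genotype means (over 0.1) in 2 of 9 pairs in hearts (0.578 and 0.409) and 2 of 9 in livers (0.164 and 0.128). In both tissues these were mice 1 and 2 of Mrps12+/+ with Mrps12ep/ep. The numbers were not taken as pairs.

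On both strands 15 motifs were searched in the promoters. Besides the pair shown they were TGATGNAA, of which TGATGCAA is a case, the E-box CACGTG, which lies within TCACGTG, the HNF4 motif CAAAGTCCA, the forkhead motif TGTTTAC, the sterol element TCACCCCAC, the AP-1 motif TGACTCA, both forms of the antioxidant response core, TGACNNNGC and also TGAGNNNGC, and, by name, the CLEAR, HNF1, glucocorticoid response, MEF2 and TonE motifs. These others were found at 0 to 14 of 46 members. TonE was at 6.52% of members and 1.11% of all genes, and CACGTG at 19.6% and 8.09%. The sterol element, CLEAR and HNF1 motifs were at 0 members and at 0.614%, 0.37% and 0.074% of all genes. Whether any share differs from that of all genes was not tested.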

Additional observations from a re-analysis of the deposited data

Results flagged for a closer look

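A pair of members separated the same genotypes in opposite directions in the 2 tissues, with every mouse of one genotype on one side in each tissue. The difference between tissues was not tested, since the tables were normalized separately. Of all tested genes, 21.2% in hearts and 19.9% in livers did not overlap between Mrps12ha/ha and Mrps12+/+ mice. Between Mrps12ha/ha and Mrps12ep/ep mice the shares were 16.6% and 17.8%. How many of all genes part in opposite directions was not counted. Slc6a13 in Mrps12ha/ha against Mrps12+/+ mice had a log2 fold change of -1.42 in hearts, from 9.4 ± 5.05 against 26.6 ± 12.5 normalized counts, and 0.31 in livers, from 9214 ± 385 against 7470 ± 1119 (SD, n = 3 mice each). Slc36a1 in Mrps12ha/ha against Mrps12ep/ep mice had -0.325 in hearts, from 475 ± 43.1 against 593 ± 15.6, and 0.32 in livers, from 1571 ± 107 against 1264 ± 118. For Slc6a13 in hearts the nearest mice of the genotypes were at 15.1 (5 reads) and 15.6 (18 reads), a gap smaller than the worth of 1 read in the first.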

How the results depend on the processing

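The adjusted p called 0 members in each of the 6 comparisons, and this held with pseudocounts of 8 and 0.5, with no filter, a mean of at least 50, quantile normalization, only the 2 genotypes compared, limma-voom (added after the data were seen) and the replicate block, under which each count of members called was also 0. The numbers do not mark shared litters in the labels, so this is not a paired result. With array weights 11 members were called in Mrps12ha/ha against Mrps12+/+ hearts and 11 against Mrps12ep/ep hearts (27.5% of those tested), where 34.7% and 39.3% of all genes were called. Leaving out each mouse in turn gave 0 to 9 and 0 to 5 members in the same comparisons, the highest without Mrps12ha/ha replicate 2 (27% and 23.2% of all genes). For the other heart comparison the range was 0 to 0. In livers it was 0 to 1 for Mrps12ha/ha against Mrps12+/+, the 1 being Slc38a2 without Mrps12+/+ replicate 2, and 0 to 0 for the other comparisons. Without the livers of high muscle markers, added after the data were seen, 2 members (Slc38a2 and Slc6a8, 6.93% of all genes called) passed for Mrps12ha/ha and 4 (Slc38a10, Slc6a13, Slc6a6 and Slc6a8, 7.52%) for Mrps12ep/ep against the 1 remaining Mrps12+/+ liver, whose spread is assumed to be that of the other genotypes. The cause was not tested. With the hearts of low atrial markers alone, also added and with 1 Mrps12+/+ and 1 Mrps12ep/ep heart under the same assumption, 0 were called. For the 33 fold changes with an unadjusted p under 0.05, none of 526 values under the alternatives changed sign, and 23 passed the threshold. Over all 231 fold changes of members, 119 kept their sign under every alternative. The planned count models on recovered reads were not run.

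The 11 members called with array weights in Mrps12ha/ha against Mrps12+/+ hearts were Slc38a1, Slc38a2, Slc38a3, Slc38a4, Slc38a6, Slc38a10, Slc43a2, Slc43a3, Slc6a4, Slc6a6 and Slc7a6os. With 3 mice per genotype and 11202866 reads in the shallowest heart, members of low count could be compared only roughly.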
